A study of Rattus norvegicus with 20 samples.

Results

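The 7 genes Lyz2, Spp1, Lgals3, Cd53, Aif1, C1qb and C3, linked to macrophages and complement, were followed in rat dorsal root ganglia, the clusters of sensory nerve cell bodies beside the spinal cord, after sciatic nerve injury. Their members were all probe sets that the platform's probe table gives to one of these genes alone, which made 11 of the 8740 probe sets tested, for all 7 genes. The ganglia came from the side of the injury and were read as total RNA, with 1 Affymetrix rat array per sample and 20 arrays in 8 groups. Chronic constriction injury (CCI), in which loose ties are placed round the sciatic nerve, was sampled at 14 days (n = 3) and 21 days (n = 3). The Seltzer model, described in the labels as sciatic nerve transection surgery and known in the field as a tight tie round part of the nerve, was sampled with 2 arrays at 14 days, 3 at 21 days and 2 at 50 days. Sham-operated rats gave 2 arrays at 14 days, 3 at 21 days and 2 at 50 days. No agent or allele is named in the labels for any group. The sources used here give no strain, age or number of animals for a sample. No label ties replicates to separate animals, and the p-values then rest on differences between samples that could be technical.

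Resident macrophages lie between the neurons and satellite glia of a dorsal root ganglion, and after a peripheral nerve is cut they multiply and are joined by monocytes from the blood. They clear debris, present antigen and release signals to neurons. Complement is a cascade of plasma and locally made proteins in which C1q starts the classical route and C3 is the point where all routes meet. Of the genes followed, Lyz2 encodes the lysozyme of macrophages and neutrophils, Aif1 the calcium-binding protein Iba1 used to stain macrophages, and Cd53 a tetraspanin of leukocyte membranes. Spp1 encodes osteopontin, a secreted ligand of integrins and Cd44, and Lgals3 encodes galectin-3, which binds galactosides on glycoproteins. Some sensory neurons of the ganglion are also known to make osteopontin and galectin-3, so neither is a marker of macrophages alone in this tissue.

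The sequences before the start sites of the best-detected pair, Lyz2 and Spp1, are shown because the first changed after CCI and the second did not pass the test. They are the 250 bases before the start that RefSeq gives in build GRCr8, read 5′ to 3′ on the minus strand, for Lyz2 at chr7:54798012-54798261 and for Spp1 at chr14:5619805-5620054. Capitals mark GAGGAA, the purine-rich core bound by the myeloid factor PU.1.
Lyz2: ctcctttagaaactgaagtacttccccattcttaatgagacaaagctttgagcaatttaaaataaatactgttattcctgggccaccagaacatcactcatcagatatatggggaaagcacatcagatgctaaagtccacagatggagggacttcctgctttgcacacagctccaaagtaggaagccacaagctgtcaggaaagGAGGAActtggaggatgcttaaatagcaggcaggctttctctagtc
Spp1: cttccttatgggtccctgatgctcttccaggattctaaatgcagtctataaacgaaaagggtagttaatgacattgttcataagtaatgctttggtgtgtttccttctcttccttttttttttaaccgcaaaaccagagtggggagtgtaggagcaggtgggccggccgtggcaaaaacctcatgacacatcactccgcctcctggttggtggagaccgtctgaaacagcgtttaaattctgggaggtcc
GAGGAA was searched on both strands and lay 46 bases before the start of Lyz2, with no match in the Spp1 window. The RefSeq table held 5 of the 7 genes, of which 3 had the motif (Lyz2, Cd53 and C1qb), against 23.2% of 27457 rat promoters of the same length. TGAGTCA, the site of AP-1 factors, searched in the same way, was found in none of the 5 and in 3.98% of all promoters. These matches describe letters in a window and no binding was measured.

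Negative values have the size of noise alone, and their 95th percentile on an array, sign dropped, served as its background. A probe set counted as detected on an array when its intensity exceeded that level. Background lay between 169 and 326 on 17 arrays, with 16% to 25.8% of probe sets above it. It was higher on CCI 21-day replicate 1 (499, with 12.8% above) and on both Seltzer arrays of 50 days (766 and 599, with 8.92% and 11% above). The GAPDH control signal of the 3′ end over that of the middle, which grows as RNA is degraded, reached 8.89 and 5.10 on the same Seltzer arrays. It was 1.78 on CCI 21-day replicate 1 and no higher than 2.85 on the 17 remaining arrays. All 10 measured sensory neuron markers were above background on at least 5 arrays, as the tissue label requires. Intensities below are the deposited values on a linear scale, and changes are differences of log2(intensity + 16) with values below 0 set to 0, tested with limma over all 20 arrays. Levels of different probe sets are not compared, since each has its own affinity.

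Detection split the genes in a pair of groups. Lyz2 and Spp1 were each above background on 19 of 20 arrays and Lgals3 on 18 of 20. The other 8 probe sets, covering C3, C1qb, Aif1 and Cd53, were above background on no array, and 95 of their 160 values were below 0. The highest of those 160 values reached 0.733 of its array's background. Thus the complement members and Aif1 were not above background in any of the 8 groups, and the results below rest on Lyz2, Spp1 and Lgals3.

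**Figure D1:**
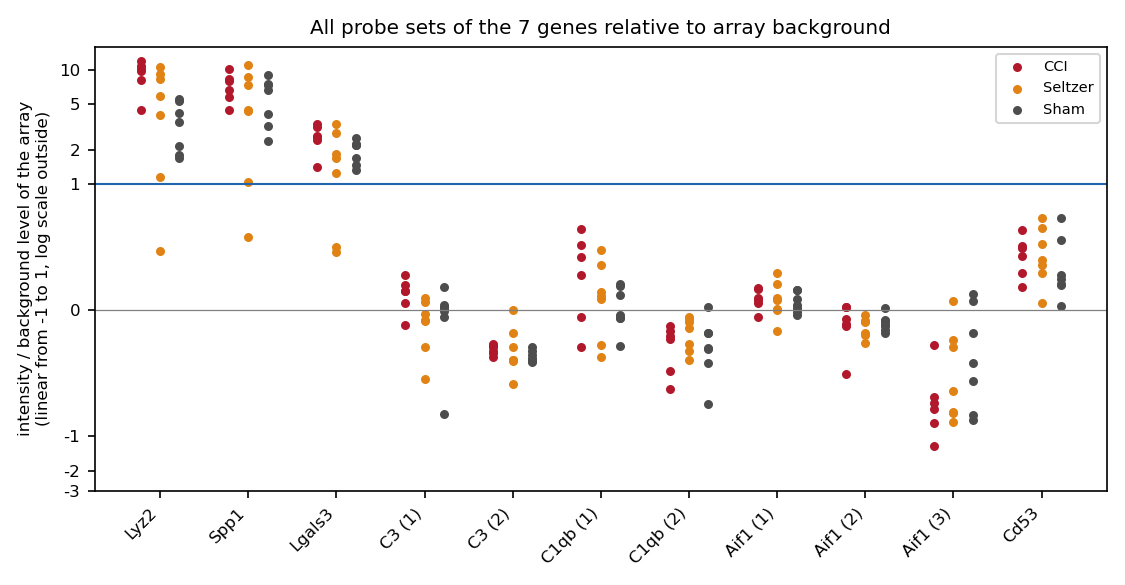
Intensity of each of the 11 probe sets divided by the background of its array (vertical axis, linear between -1 and 1 and logarithmic outside), with 1 point per array coloured by surgery over all days. The blue line marks background, and numbers in brackets tell probe sets of 1 gene apart, in the order of the text. Lyz2, Spp1 and Lgals3 lie above the line on 18 or 19 of 20 arrays, and the other 8 probe sets lie below it on all of them.

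Lyz2 (probe set rc_AA892775_at) carried the clearest response. At 14 days its intensity was 2440, 1727 and 2513 in CCI ganglia, 2199 and 1790 in Seltzer ganglia, and 946 and 1327 in sham ganglia. At 21 days it was 2231, 2510 and 1930 in CCI ganglia, 1127, 1741 and 1716 in Seltzer ganglia, and 684, 1166 and 634 in sham ganglia. Every CCI array was above every sham array of its day, as were 18.1% of all probe sets at 14 days and 6.57% at 21 days. The same held for Seltzer at 14 days (17.9% of all probe sets), while the lowest Seltzer array at 21 days fell just under the highest sham array. At 50 days it was 358 and 683 in Seltzer ganglia, against 588 and 468 in sham ganglia, and those groups overlapped.

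Over 14 and 21 days together, Lyz2 rose in CCI ganglia by 1.21 on the log2 scale (SE 0.22, 95% interval 0.74 to 1.67, limma adjusted p = 0.00794), which was 2.33-fold, and stood above the sham mean of the day on 6 of 6 arrays. It was the only one of the 11 probe sets past the threshold in this contrast, in which 2.29% of all probe sets passed (1.19% higher). The 21-day difference passed on its own (log2 1.45, 95% interval 0.83 to 2.08, limma adjusted p = 0.0307, 2.78-fold), again as 1 of 11, against 0.927% of all probe sets. At 14 days the change was 0.96 on the log2 scale (95% interval 0.27 to 1.66, 1.96-fold) and did not pass (limma adjusted p = 0.193), and no member did, against 2.78% of all probe sets. The CCI effect at 21 days minus that at 14 days was 0.49 (95% interval -0.44 to 1.43, limma adjusted p = 0.711), so no change of the effect with day was shown, and no member passed where 1.8% of all probe sets did.

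Array medians moved with group at these days, by -0.12 (log2) in CCI minus sham at 14 days and by 0.17 at 21 days. With arrays centred on their medians, Lyz2 in CCI minus sham was 1.08 at 14 days and 1.29 at 21 days, and the 21-day difference no longer passed (limma adjusted p = 0.131). Without CCI 21-day replicate 1 the mean change over both days was 1.2 (limma adjusted p = 0.0148), and the 21-day change was 1.45 with a limma adjusted p of 0.0975. The 21-day call was also lost without either of the other CCI arrays of that day and without sham 21-day replicate 1 or 3 (log2 1.29 to 1.72 over all arrays left out). Leaving out sham 14-day replicate 1 ended the call of the mean over both days (log2 1.09, limma adjusted p = 0.0556). In bulk ganglia, more macrophages and more lysozyme mRNA per cell cannot be told apart. The RefSeq table of build GRCr8 also places a second lysozyme gene, Lyc2, beside Lyz2 on chromosome 7, and which of the copies this probe set reads was not tested.

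In Seltzer ganglia Lyz2 averaged 1.83-fold the sham level over 14 and 21 days, with 5 of 5 arrays above the sham mean of their day. That change (log2 0.86, 95% interval 0.37 to 1.35) did not pass the test over all probe sets (limma adjusted p = 0.247), in a contrast where 0.297% of probe sets passed and no member did. The single days gave 0.82 at 14 days and 0.90 at 21 days, with limma adjusted p-values of 1 and 0.422, and 0.206% and 0.378% of all probe sets passing. At 50 days the difference was -0.08 (95% interval -0.84 to 0.68, limma adjusted p = 1). It was -0.42 with arrays centred and -0.44 with quantile normalization, and ran from -0.53 to 0.37 with single arrays left out. Seltzer replicate 1 was not above its background, and both sham levels lay below the background of both Seltzer arrays.

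CCI and Seltzer, compared directly, differed in Lyz2 by 0.35 over 14 and 21 days (95% interval -0.12 to 0.82, limma adjusted p = 0.727). At 21 days the difference was 0.56 (95% interval -0.07 to 1.18, limma adjusted p = 0.582), although each CCI array was above each Seltzer array, as in 5.02% of all probe sets. The data therefore do not show that Lyz2 answered differently in the models, and the interval still holds a CCI excess of up to 0.82. No member passed between CCI and Seltzer, against 0.927% of all probe sets for the mean over both days, 1.75% at 14 days and 0.114% at 21 days.

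By group mean, Lyz2 was highest in CCI ganglia at 14 days (2227 ± 434, SD, n = 3) and at 21 days (2224 ± 290, n = 3). Seltzer ganglia followed at 14 days (1994 ± 289, n = 2) and 21 days (1528 ± 347, n = 3). Below them came sham ganglia at 14 days (1136 ± 270, n = 2) and 21 days (828 ± 294, n = 3), and last the 50-day groups, Seltzer at 521 ± 229 (n = 2) and sham at 528 ± 85.0 (n = 2). Neighbours in that order overlapped in their arrays except at 2 steps, Seltzer from 14 to 21 days and sham from 21 to 50 days. In the sham step 22.3% of all probe sets were likewise lower on every array at 50 days. The share for the Seltzer step was not computed, so that step is not read as a result.

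**Figure D2:**
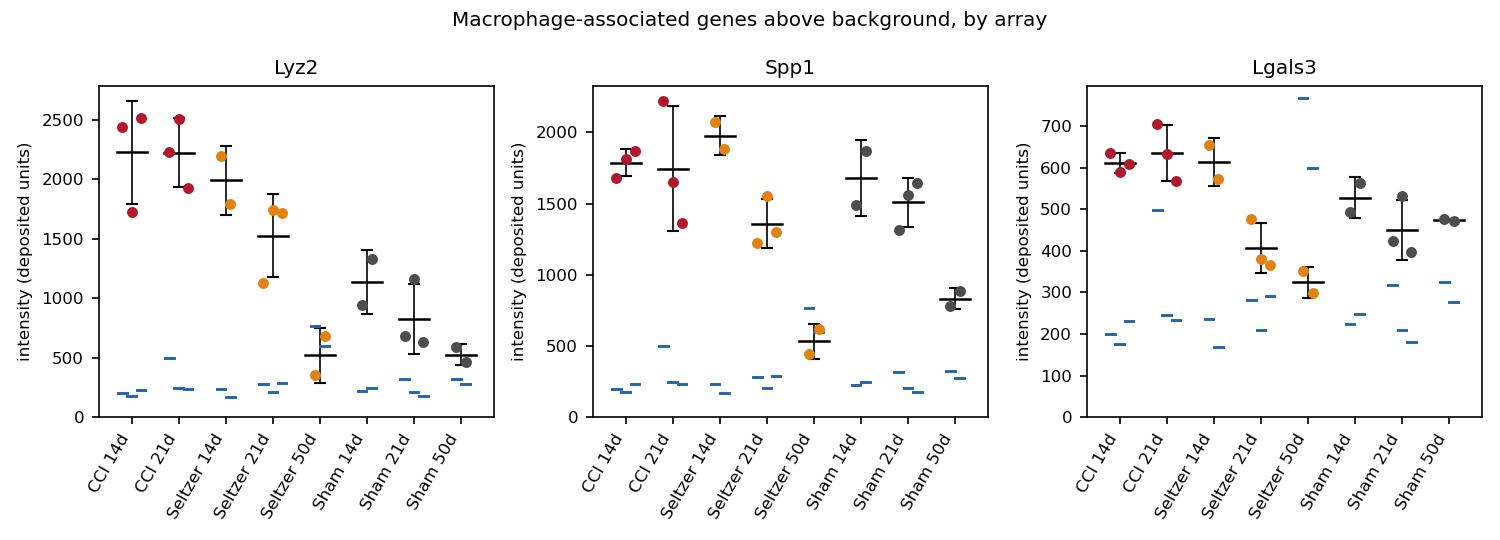
Deposited intensity of Lyz2, Spp1 and Lgals3 on a linear axis, with 1 point per array, the group mean as a black bar and its SD as whiskers (n = 2 or 3), and the background of each array as a short blue bar. In the Lyz2 panel all CCI arrays lie between 1727 and 2513 and all sham arrays between 468 and 1327. Of the 6 Seltzer points at 50 days, 4 lie below their blue bars.

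Lysozyme is also made by neutrophils, so their markers were read beside it. Of 8 neutrophil genes 5 were measured, and 4 of those, S100a8 and S100a9 among them, were above background on no array. The summed intensity of the 5 ran from 321 to 690 in CCI ganglia, from 381 to 661 in Seltzer ganglia and from 364 to 1073 in sham ganglia at 14 and 21 days, and none of the 5 passed the test in the CCI or the Seltzer mean contrast. RatNP-3b, above background on 8 arrays, changed by -0.30 in CCI (limma adjusted p = 0.387) and -0.35 in Seltzer (limma adjusted p = 0.796). With 4 of 5 undetected, the sum cannot tell which cells made the Lyz2 signal, and that was not tested.

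Spp1 (M14656_at) did not pass the test in either model at 14 or 21 days. At 14 days its intensity was 1681, 1812 and 1871 in CCI ganglia, 2074 and 1880 in Seltzer ganglia, and 1491 and 1868 in sham ganglia. At 21 days it was 2223, 1653 and 1362 in CCI ganglia, 1221, 1551 and 1300 in Seltzer ganglia, and 1318, 1561 and 1645 in sham ganglia. The CCI arrays overlapped the sham arrays at both days, and the Seltzer arrays did so at 21 days. Over both days CCI minus sham was 0.14 on the log2 scale (95% interval -0.14 to 0.42, limma adjusted p = 0.801) and Seltzer minus sham was 0.04 (95% interval -0.25 to 0.34, limma adjusted p = 1). The CCI interval leaves room for a rise of up to 0.42, and CCI minus Seltzer was 0.10 (95% interval -0.19 to 0.38, limma adjusted p = 0.952).

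Spp1 instead differed among the sham groups. Sham ganglia at 50 days had 780 and 886, below every sham array at 14 days (34.1% of all probe sets) and at 21 days (22.3%). The 50-day sham arrays also differed in GAPDH ratio and in muscle genes. Their GAPDH ratios were 2.84 and 2.85, against 1.90 and 1.74 in sham at 14 days and 1.00 to 1.32 in sham at 21 days, and their summed muscle intensity was 799 and 1100, against 4378 to 5176 at the earlier days. The part of either in the differences that follow was not tested. The F test over the 3 sham days passed (limma adjusted p = 0.0155), for Spp1 alone among the 11 probe sets and for 8.48% of all probe sets. Sham at 50 days was lower than sham at 21 days by a log2 change of -0.84 (SE 0.19, limma adjusted p = 0.0187, 1.81-fold), in a contrast with 4.82% of probe sets called lower. Against sham at 14 days the log2 change was -0.99 (SE 0.21, limma adjusted p = 0.0154, 2.01-fold), with 3.57% of probe sets called lower. In that contrast 312 probe sets were called lower and 181 higher, against 145 lower and 174 higher with arrays centred. The call against 21 days was lost in 8 of 28 alternatives, among them arrays centred on their medians (limma adjusted p = 0.0771), sham 21-day replicate 2 or 3 left out (0.0532 and 0.0591) and either 50-day sham array left out (0.169 and 0.0679), while the change itself stayed between -0.93 and -0.75. The call against 14 days was lost in 4 of 28 alternatives, which were arrays centred (-0.82, limma adjusted p = 0.0931), only the groups compared (limma adjusted p = 0.116), sham 14-day replicate 2 left out (-0.83, limma adjusted p = 0.129) and sham 50-day replicate 1 left out (-0.90, limma adjusted p = 0.114). Lyz2 in sham at 50 minus 14 days was -1.07 (95% interval -1.83 to -0.31) and did not pass (limma adjusted p = 0.105).

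At 50 days Spp1 read 447 and 621 in Seltzer ganglia, against 780 and 886 in sham ganglia, and the groups did not overlap. The difference was -0.64 (95% interval -1.10 to -0.18, 1.58-fold lower) and did not pass (limma adjusted p = 0.0596). The Seltzer array at 447 was not above its background of 766, and the array at 621 lay just above its background of 599. The fold thus rests in part on a value that was not detected. Non-overlap in that direction held for 37.2% of all probe sets at 50 days.

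Lgals3 (J02962_at) had a narrower range than Lyz2. At 14 days its intensity was 636, 589 and 610 in CCI ganglia, 655 and 573 in Seltzer ganglia, and 493 and 562 in sham ganglia. At 21 days it was 705, 633 and 568 in CCI ganglia, 475, 381 and 365 in Seltzer ganglia, and 424, 533 and 396 in sham ganglia. At both days every CCI array was above every sham array, a separation read against the 18.1% and 6.57% of all probe sets given for Lyz2. The CCI change over both days was 0.35 on the log2 scale (SE 0.09, 95% interval 0.15 to 0.55, 1.28-fold, 6 of 6 arrays above the sham mean) and missed the threshold (limma adjusted p = 0.0867). By day it was 0.21 at 14 days (limma adjusted p = 0.758) and 0.49 at 21 days (1.42-fold, limma adjusted p = 0.116). Leaving out sham 21-day replicate 2, the highest sham array of that day, brought it past (log2 0.41, limma adjusted p = 0.0297), as 2 of 11 members with Lyz2.

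The models parted most in Lgals3 at 21 days, where CCI ganglia averaged 635 ± 68.4 (SD, n = 3) and Seltzer ganglia 407 ± 59.8 (n = 3) with no overlap, as in 5.02% of all probe sets. CCI minus Seltzer was 0.63 (95% interval 0.36 to 0.90, 1.57-fold) and did not pass over all probe sets (limma adjusted p = 0.082), where 0.114% did, while at 14 days it was 0.00 (95% interval -0.30 to 0.30). Array medians were 0.18 (log2) higher in CCI than in Seltzer at 21 days, and with arrays centred the difference was 0.45 (limma adjusted p = 0.471). Over both days it was 0.31 (limma adjusted p = 0.202). Seltzer minus sham for Lgals3 was 0.04 over 14 and 21 days (95% interval -0.18 to 0.25, limma adjusted p = 1). That mean joins 0.21 at 14 days (95% interval -0.12 to 0.54, limma adjusted p = 1), where both Seltzer arrays were above both sham arrays as in 17.9% of all probe sets, and -0.14 at 21 days (95% interval -0.41 to 0.13, limma adjusted p = 0.897), where the groups overlapped.

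At 50 days Lgals3 read 351 and 299 in Seltzer ganglia, neither above its array's background, against 476 and 473 in sham ganglia, both above theirs. The fitted difference was -0.53 (SE 0.15, limma adjusted p = 0.0327), and Lgals3 was the 1 member of 11 past the threshold, where 15.9% of all probe sets passed (7.2% lower). Over all probe sets 54.8% of the calls in this contrast were higher in Seltzer, against 35.7% with arrays centred and 36.4% with quantile normalization. No fold is given, because the sham level lay below the background of both Seltzer arrays. The call was lost with either Seltzer array left out (limma adjusted p = 0.0528 and 0.18) and with either sham array left out (0.12 and 0.126). At this day the medians of the Seltzer arrays were 0.34 (log2) higher, and both background and GAPDH ratio stood apart on them. The summed intensity of 7 skeletal muscle genes was 3490 and 4420 in Seltzer ganglia, against 799 and 1100 in sham ganglia. The Seltzer sums lay within the 3016 to 6556 of Seltzer ganglia at 14 and 21 days. It was the sham sums of 50 days that were low, against 4378 to 5176 in sham ganglia at 14 and 21 days. CCI ganglia at those days ran from 1108 to 11350, so the lowest CCI array was close to the higher sham sum of 50 days. With arrays centred, Lgals3 was -0.87 (limma adjusted p = 0.0222) and Spp1 -0.98 (limma adjusted p = 0.0197). The part of RNA quality and of muscle in these differences was not tested.

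**Figure D3:**
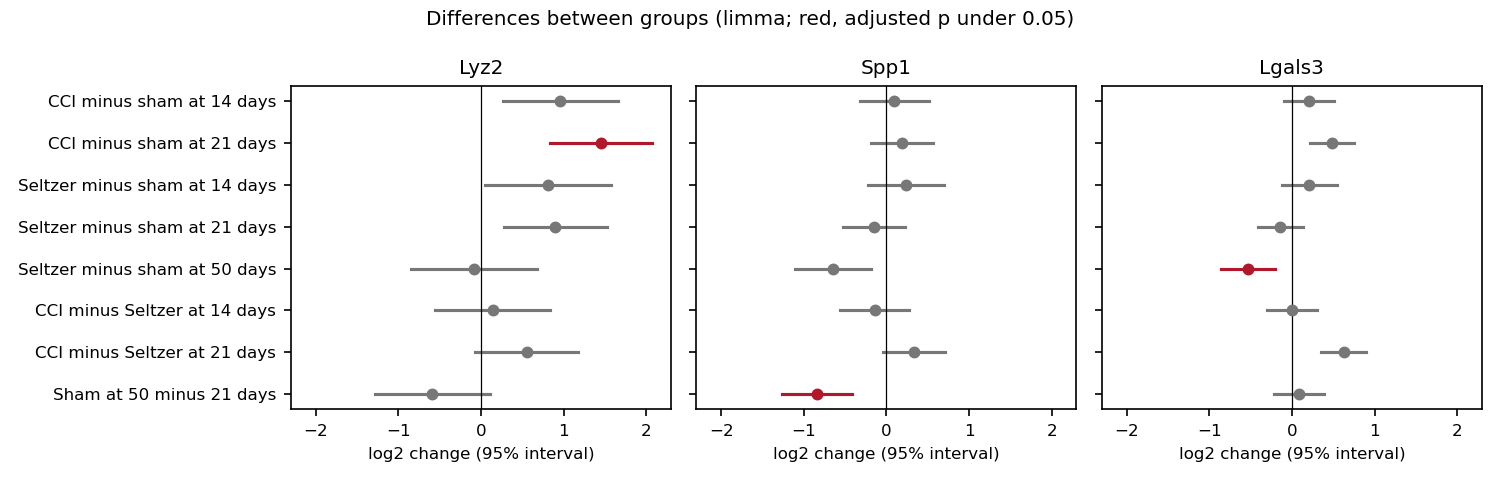
Log2 differences of Lyz2, Spp1 and Lgals3 for 8 comparisons (points) with 95% intervals (lines), first group minus second, red where the limma adjusted p is under 0.05. Red marks Lyz2 in CCI minus sham at 21 days (1.45), Spp1 in sham at 50 minus 21 days (-0.84) and Lgals3 in Seltzer minus sham at 50 days (-0.53).

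The undetected members are given for completeness, as values that no fold can be drawn from. The C3 probe set X52477_at ran from -262 to 137 with a median of 5.71, and M29866_s_at was below 0 on all 20 arrays. For C1qb, a chain of C1q, X71127_at ran from -282 to 120 and X71127_g_at from -239 to 6.82. For Aif1, U17919_s_at ran from -47.5 to 88.2, U10894_s_at from -251 to 5.84 and U33471_at from -627 to 36.4. Cd53 (M57276_at) was the one never below 0, from 10.6 to 214 with a median of 96.2. None of the 8 passed the test in a contrast above, and in the CCI mean contrast none had an unadjusted p under 0.05 either.

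C1qb X71127_at read 85.2, 113 and 120 in CCI ganglia at 14 days, against -63.2 and 51.3 in sham ganglia. Those groups did not overlap, as in 18.1% of all probe sets, but every value lay below its array's background and the change did not pass (limma adjusted p = 0.468). At 21 days the same probe set averaged -30.4 ± 109 (SD, n = 3) in CCI ganglia, against -1.70 ± 21.3 (n = 3) in sham ganglia. For these genes a difference between groups was not detectable at the arrays' signal over background.

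The 3 detected genes followed each other loosely over the 8 group means of log2 intensity. Pearson's r was 0.85 between Lyz2 and Spp1, 0.83 between Spp1 and Lgals3 and 0.77 between Lyz2 and Lgals3, and over the 20 arrays 0.79, 0.72 and 0.69 in the same pairs. These points share arrays, including the low 50-day groups. Among 1671 probe sets of other genes with 1 symbol and detection on at least 5 arrays, those most like Lyz2 over the group means were Gfra1 (r = 0.986) and Btg1 (0.979). Ctsl (0.992) and Ppp1cc (0.991) were most like Spp1, and Me1 (0.968) and Qdpr (0.903) most like Lgals3. Each is the highest of 1671 over only 8 points, so a high r comes in part from the search. Over the 20 arrays r was 0.936 for Gfra1, 0.78 for Btg1, 0.806 for Ctsl, 0.899 for Ppp1cc, 0.823 for Me1 and 0.618 for Qdpr.

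Other macrophage genes were read from a list of 58, of which 33 were measured and 23 were never above background. Never above background were Itgam, the integrin chain Cd11b, Csf1r, the receptor for colony stimulating factor 1, Cx3cr1, the fractalkine receptor, and Ptprc, the leukocyte antigen Cd45. In CCI ganglia over 14 and 21 days 3 of 33 rose and 0 fell, with a median log2 change of 0.03, against 63 higher and 50 lower of 4736 genes with a median of 0. In Seltzer ganglia the same 3 rose, against 13 higher and 5 lower of all genes, and both contrasts share the sham arrays. This list and those below were written with earlier results of these data known, so their counts are not an independent test. The 3 were Cd74, the chaperone of MHC class II molecules, Ctss, the protease cathepsin S that degrades it, and Ccl2, a chemokine that draws monocytes. The other genes of the list above background on at least 5 arrays did not pass in either contrast. Their CCI log2 changes were -0.46 for Lipa, -0.05 for Cd14, 0.06 for Ctsd, 0.10 for Ctsb, 0.35 for Cd48 and 0.47 for Apoe.

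Cd74 averaged 2088 ± 151 (SD, n = 3) in CCI ganglia, 1455 ± 471 (n = 2) in Seltzer ganglia and 646 ± 56.5 (n = 2) in sham ganglia at 14 days. Its log2 change was 1.76 in CCI (limma adjusted p = 1.03e-05) and 1.38 in Seltzer (limma adjusted p = 0.000516), and each CCI and Seltzer array at 14 and 21 days was above the sham arrays of its day. The same held for 18.1% and 6.57% of all probe sets in CCI and for 17.9% and 4.97% in Seltzer, at 14 and 21 days. Of its 3 other probe sets, X13044_g_at was also called higher in CCI (limma adjusted p = 0.00418) and the others were never above background. Ctss was not above background on any sham array, and its CCI level was at least 1.43-fold higher at 14 days and at least 1.64-fold higher at 21 days (limma adjusted p = 6.99e-05 over both days). Its Seltzer level was at least 1.25-fold higher at 14 days and at least 1.15-fold higher at 21 days (limma adjusted p = 0.00366 over both days). Ccl2 rose by 0.58 in CCI (limma adjusted p = 0.0231) and by 0.81 in Seltzer (limma adjusted p = 0.0169), with 740 and 762 in Seltzer ganglia at 14 days, above 421, 435 and 433 in CCI ganglia and 380 and 382 in sham ganglia. At 21 days it read 366, 412 and 530 in CCI ganglia, 347, 287 and 398 in Seltzer ganglia, and 221, 215 and 195 in sham ganglia. CCI replicate 1 and sham replicate 1 of that day were not above background. A second Ccl2 probe set was never above background and did not pass.

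**Figure D4:**
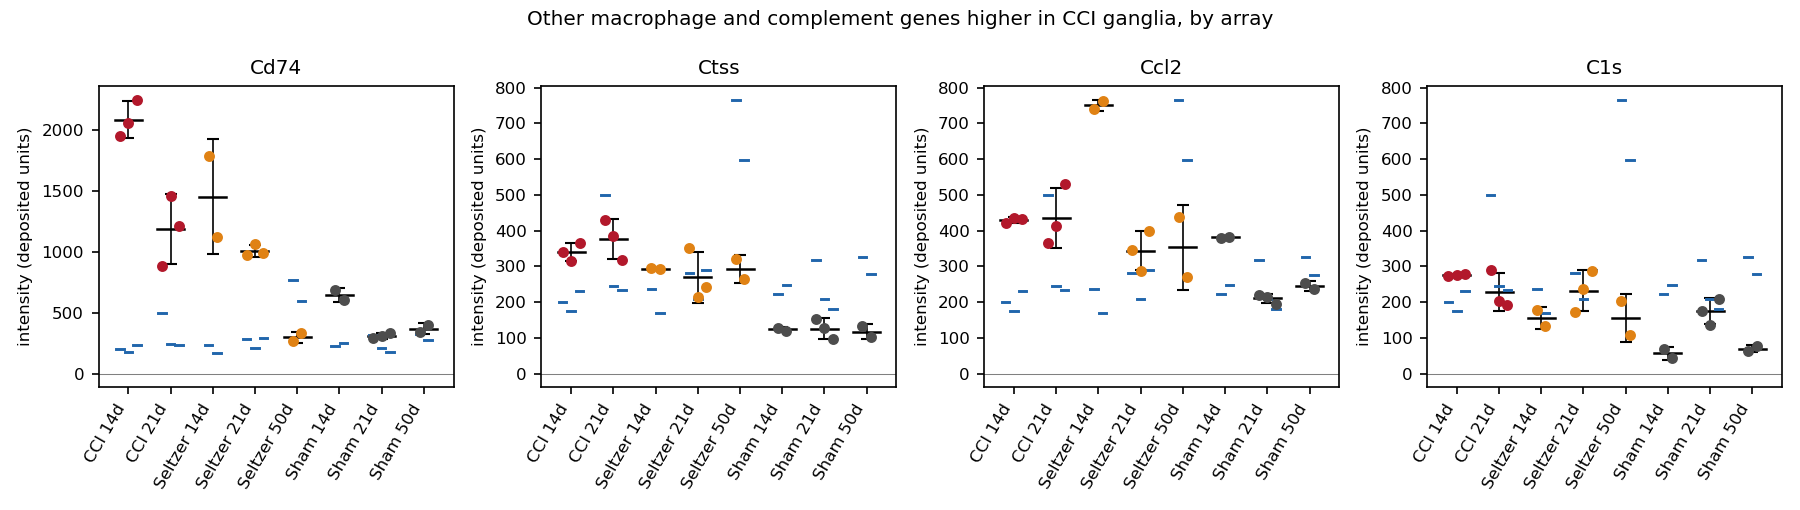
Deposited intensity of Cd74, Ctss, Ccl2 and C1s on linear axes, with 1 point per array, group mean (black bar), SD (whiskers, n = 2 or 3) and array background (short blue bar). Cd74 lies at 886 or above on every CCI array and at or below 686 on every sham array, and Ctss lies below background on all sham arrays.

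Of 35 other complement genes 20 were measured and 11 of those were never above background. In CCI ganglia 1 rose, C1s, the serine protease of the C1 complex (limma adjusted p = 0.00282), and 1 fell, Cd55, which speeds the decay of C3 convertases (limma adjusted p = 0.024). C1s read 272, 275 and 278 in CCI ganglia at 14 days, against 68.8 and 44.1 in sham ganglia, below their background, which made it at least 1.17-fold higher. At 21 days it read 290, 204 and 192 in CCI ganglia, against 176, 137 and 210 in sham ganglia, and the groups overlapped. No CCI array of that day was above background, against 1 of 3 sham arrays. No bound could be given, and the day did not pass (log2 0.36, limma adjusted p = 0.544). Sham ganglia themselves read higher at 21 than at 14 days (limma adjusted p = 0.0142). The C1s call over both days thus rests mainly on 14 days, where the sham level was low. Cd55 was at least 2.03-fold lower in CCI ganglia at 14 days, where no CCI array was above background. At 21 days it read 68.3, 107 and 119 in CCI ganglia, again not above background, against 75.1, 243 and 280 in sham ganglia. Those groups overlapped, no bound could be given and the day did not pass (limma adjusted p = 0.417). The second Cd55 probe set was never above background and did not pass (limma adjusted p = 1). None of the 20 passed in the Seltzer mean contrast, and the list's median log2 change was 0.06 in CCI and -0.07 in Seltzer.

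Among binding partners of osteopontin and galectin-3, 10 of 14 were measured, 5 were never above background and none passed in the CCI or the Seltzer mean contrast, with a median log2 change of 0.27 in CCI and 0.28 in Seltzer, against 0 over all genes. Those medians include the undetected genes, and only 3 of the 10 were above background on at least 5 arrays. They are therefore not read as a shift of the list. Cd44, a receptor of osteopontin, was one of those never above background. The partners with the highest means were Lgals1, a related galectin (CCI log2 change 0.28, limma adjusted p = 0.758), and Itgb1, an integrin chain (0.53, limma adjusted p = 0.109). Itgb1 averaged 1310 ± 33.6 (SD, n = 3) in CCI ganglia, 1195 ± 28.6 (n = 2) in Seltzer ganglia and 702 ± 120 (n = 2) in sham ganglia at 14 days, and at 21 days CCI (1488 ± 209) and sham (1330 ± 303, n = 3 each) overlapped.

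At 50 days the Seltzer arrays stood apart in background and GAPDH ratio, and the sham arrays were low in muscle genes. There the Seltzer minus sham contrast called 4 higher and 3 lower of the 33 macrophage genes. It called 4 higher and 2 lower of the 20 complement genes and 4 higher and 1 lower of the 10 partners, against 457 higher and 400 lower of all 4736 genes. Of those called higher, Cd37, Ccr2, C8b, Masp1, Mmp3 and Mmp9 were above background on no array of the series. Ctss and C1s, called higher, and Cd55, called lower, were above background on no 50-day array. For these genes the calls allow no statement on change. Markers of other leukocytes were mostly undetected at all days: 8 of 9 measured T cell genes and all 6 measured mast cell genes were above background on no array.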

How the data were processed

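Total RNA of 20 rat dorsal root ganglion samples was measured on 1 Affymetrix rat array each, and samples were grouped by surgery and day from the labels. The authors deposited a table of 8799 probe sets by array as intensity on a linear scale, where 28.95% of values are below 0. The sources used here do not give the software, background step or scaling behind it. Array controls (59 probe sets) were left out, which left 8740 (7006 with 1 gene symbol, 308 with several, 1426 with none). All 11 member probe sets matched a current gene.

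Each value was raised to at least 0, 16 was added and the log2 taken. limma 3.58.1 (lmFit, eBayes) in R 4.3.3 fitted 8 group means with 12 residual degrees of freedom. Tests were two-sided, with Benjamini-Hochberg adjustment over 8740 probe sets and a threshold of 0.05, and means over 14 and 21 days weight both days equally. A fold is a ratio of geometric mean intensities. Where a group was never above background, it is a bound against the lowest signal above background of each array, written "at least", and none is given where this is under 1. Genes in lists were represented by their probe set with the highest mean. Figures used Python 3.11.15 and matplotlib 3.10.9. The fit was tested on simulated data with known changes.

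The members and lists were chosen with earlier results of these data known, and the rule naming list genes (up to 4 past the CCI threshold, else the 2 with the highest means) was written with them known too. Single-day contrasts of CCI against Seltzer and of sham days were added after seeing the data. Alternatives were other numbers added (1 and 64), quantile normalization, centring, leaving out the dimmest 33.3% of probe sets, a fit of the compared groups alone, a replicate block, array weights, each array left out, and, added after seeing the data, sham arrays of 21 days as the control at 14 days too and the 50-day arrays left out. Replicate numbers are a lot batch on 3 CCI arrays, without saying of what. Deviations of same-numbered arrays from their group means correlated at 0.299, 0.226 and 0.11 between Seltzer and sham at 21 days, the one comparison with 3 pairs all over 0.1. Between CCI and sham at 21 days they correlated at 0.0606, 0.0881 and 0.0931. The Seltzer and sham arrays of 21 days may therefore be paired, which the correlations alone do not settle. The main fit used no pairing, and the replicate block was fitted only as an alternative. No arrays were identical. Array number limits the precision of all values.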

Additional observations from a re-analysis of the deposited data

Results flagged for a closer look

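Spp1 was the 1 result that met a set criterion, among 16 comparisons of the effect of a surgery at different days or of both surgeries at a day. Both Seltzer arrays at 14 days (2074 and 1880) lay above the sham mean of that day (1680 ± 267, SD, n = 2), a log2 difference of 0.24. Both Seltzer arrays at 50 days (447 and 621) lay below the sham mean of that day (833 ± 75.1, n = 2), a log2 difference of -0.64. The effects were 0.883 apart on the log2 scale, and this difference was not tested. Neither effect passed the test on its own (limma adjusted p = 1 and 0.0596). Every Seltzer array was above every sham array for 17.9% of all probe sets at 14 days, and below for 37.2% at 50 days. The 50-day Seltzer arrays had GAPDH ratios of 8.89 and 5.10, and the value of 447 lay under its background of 766. The opposite directions were not particular to Spp1. Lgals3, which was not flagged, had a log2 difference of 0.21 at 14 days, with both Seltzer arrays above the sham mean. At 50 days its difference was -0.53, with both Seltzer arrays below the sham mean and neither above its background. The part of RNA quality in the opposite directions was not tested.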

How the results depend on the processing

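For CCI against sham over 14 and 21 days, the rise of Lyz2 lay between 1.09 and 1.45 (log2) over 30 alternatives and passed in 29 (limma adjusted p from 0.00389 to 0.0556). The exception was sham 14-day replicate 1 left out. Leaving out single arrays gave 0 to 2 members past the threshold. The 21-day call of Lyz2 was lost in 9 of 29 alternatives. The members called at 21 days were 0 with quantile normalization, centring, only the groups compared or array weights, and 0 to 2 with single arrays left out. At 50 days the members called, Seltzer against sham, were 2 with quantile normalization, centring or array weights, 0 with the dimmest 33.3% left out or only the groups compared, and 0 to 2 with arrays left out. The sham F test called 0 members with centring, the dimmest 33.3% left out or only the groups compared, and 0 to 1 with arrays left out. It called 557 of all probe sets with centring, 610 with only the groups compared and 442 to 1100 with arrays left out. With the replicate number as a block, Lyz2 in CCI over both days was 1.22 (limma adjusted p = 0.0164), and no member's call changed. The cause of these changes was not tested, except that leaving arrays out or fitting only the groups compared leaves fewer arrays.

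Counts over all probe sets moved more than 1.5 times under some settings. As reported they were 200 for CCI and 26 for Seltzer against sham over both days, 81 for CCI against Seltzer, 157 for the CCI effect at 21 minus 14 days, 243 and 81 for CCI at 14 and 21 days, 18, 33 and 1391 for Seltzer at 14, 21 and 50 days, and 741 for the sham F test. With centring they were 114 for CCI and 16 for Seltzer against sham over both days, 43 for CCI against Seltzer, 91 for the CCI effect at 21 minus 14 days, and 146, 5 and 9 for CCI at 14 days and Seltzer at 14 and 21 days. With the dimmest 33.3% left out they were 130 for CCI over both days, 49 for CCI against Seltzer, and 155, 7 and 9 for CCI at 14 days and Seltzer at 14 and 21 days. With only the groups compared they were 15 for Seltzer over both days, 514 and 13 for CCI at 14 and 21 days, 0 and 0 for Seltzer at 14 and 21 days (752 and 461 at an unadjusted p under 0.05 in the same fits, and 18 and 33 by the fit of all groups) and 841 for Seltzer at 50 days. With array weights they were 518 for CCI and 77 for Seltzer over both days, 309 for CCI against Seltzer, 344 for the CCI effect at 21 minus 14 days, 784 and 136 for CCI at 14 and 21 days, 66 and 51 for Seltzer at 14 and 21 days, and 1748 for the sham F test. The sham arrays of 21 days as control at 14 days too gave 86 for CCI and 142 for Seltzer, and leaving out the 50-day arrays gave 20 for Seltzer at 21 days. Leaving out single arrays gave 22 to 61 for Seltzer over both days, 660 to 1892 for Seltzer at 50 days, 62 to 152 for CCI against Seltzer, 142 to 348 for CCI at 14 days, 13 to 56 and 19 to 56 for Seltzer at 14 and 21 days, and 442 to 1100 for the sham F test. The contrasts added after seeing the data moved too. CCI against Seltzer called 153 at 14 days, with 84 under centring, 96 with the dimmest 33.3% left out, 451 with only the groups compared, 797 with array weights and 90 to 249 with arrays left out. At 21 days it called 10, with 22 under quantile normalization, 4 under centring, 24 with array weights, 0 with only the groups compared (361 at an unadjusted p under 0.05) and 3 to 53 with arrays left out. Sham at 50 days called 493 against 14 days, with 319 under centring, 1236 with array weights and 275 to 765 with arrays left out, and 652 against 21 days, with 378 with only the groups compared, 1515 with array weights and 313 to 963 with arrays left out. With centring, the share of calls that were higher was 93.8% in place of 69.2% for Seltzer over both days, 88.9% in place of 69.7% for Seltzer at 21 days, 39.5% in place of 51.9% for CCI against Seltzer over both days, and 36.3% in place of 51% for the CCI effect at 21 minus 14 days. Signal over background limits C3, C1qb, Aif1 and Cd53 to no statement on change.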
